A study of Mus musculus with 6 samples.

Results

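The 10 genes described here encode laminin chains (Lama2, Lama4, Lama5, Lamb1, Lamb2 and Lamc1), the nidogens (Nid1 and Nid2) and the main type IV collagen chains (Col4a1 and Col4a2). They were chosen by name, and each was found as a gene symbol among the 35976 rows of the count table. RNA carrying poly(A) tails was sequenced from mouse chondrocytes, the cells that make cartilage matrix, isolated from hind limb articular cartilage at embryonic day 18.5. The strain was C57BL/6 x 129S4/SvJae. All cells were expanded on tissue culture plastic for 16 population doublings in medium with serum and 2 µg/ml doxycycline, which induced a histone H3.3 transgene. In the H3K9M group this transgene carried a lysine-to-methionine substitution that suppresses methylation at H3K9, a mark of silenced chromatin, and in the control group, H3WT, the induced H3.3 was wild type. Both groups therefore carried an induced transgene and both had doxycycline. There were 3 libraries of H3K9M (replicates 1, 3 and 5) and 3 of H3WT (replicates 1, 2 and 4). The labels do not say whether the libraries came from separate animals or cultures, so the p-values below measure only the spread between these libraries, which may be technical.

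Laminins are cross-shaped trimers of an alpha, a beta and a gamma chain that assemble at the cell surface into a sheet. Type IV collagen forms a second network beneath cells, and nidogens bind both the laminin gamma-1 chain and collagen IV and so link the sheets of a basement membrane. Cartilage has no basement membrane of the epithelial kind, but the thin pericellular matrix around each chondrocyte is known to hold these proteins together with perlecan.

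Total counts per library ranged from 15113675 to 19606082, and the 10 genes together took between 0.153% and 0.288% of them. The cells carried chondrocyte transcripts in every library. Among 11 chondrocyte markers none was at 0 in all libraries, and their summed level was 7350 to 11545 CPM (read counts relative to library size, with TMM scaling between libraries) in H3K9M and 7264 to 19400 CPM in H3WT. Col2a1 was most of this sum in each library, with 4971 to 8421 CPM in H3K9M and 4913 to 14110 CPM in H3WT. Endothelial cells are rich in laminins and collagen IV. The 10 endothelial markers summed to 2.80 to 4.03 CPM in H3K9M and 4.49 to 8.31 CPM in H3WT, with Cdh5, Emcn, Cldn5 and Tie1 at 0 in all 6 libraries. The 10 fibroblast markers summed to 12224 to 30500 CPM in H3K9M and 10236 to 35081 CPM in H3WT, and 9 smooth muscle and pericyte markers to 1257 to 4328 CPM and 1751 to 4949 CPM. By their sums, H3K9M replicate 3 and H3WT replicate 2 were the low libraries in both of these lists. The single markers did not all follow. In these libraries Col1a1, Col1a2, Col3a1, Postn and Thy1 were lowest, and Dcn, Lum and Pdgfra highest. Of the smooth muscle and pericyte markers, Acta2, Myh11, Cnn1, Tagln, Mcam and Pdgfrb were lowest there. Cspg4 was highest in H3WT replicate 2. In bulk RNA, fewer cells of a type and less RNA per cell cannot be told apart.

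All 10 genes passed the filter on low counts. None of them passed an adjusted p of 0.05 (edgeR quasi-likelihood test, Benjamini-Hochberg adjustment over 13761 genes), and neither did any other gene (0 of 13761, 0%). Lama4 had the smallest unadjusted edgeR p of the 10 genes (0.00332). It was lower in all 3 H3K9M libraries than in any H3WT library, while Lama5 had the higher mean in H3K9M. The shares of Lama4 and Lama5 in the summed Lama2, Lama4 and Lama5 transcripts did not overlap between the groups. Neither did the share of Col4a1 in the collagen IV pair. These shares come from the same counts, and how often such shares separate among other genes was not tested. Lamb2, Nid2 and Lama2 had lower means in H3K9M, as had Lamc1 by a smaller margin, and the group means of Lamb1, Nid1, Col4a1 and Col4a2 differed by less than the SD within either group. By unadjusted p under 0.05, 2 of the 10 genes (Lama4 and Lamb2) were lower in H3K9M, where 5.77% of all tested genes were, and 0 were higher, where 6.42% of all tested genes were. In 1 of the 10, Lama4, the groups did not overlap with H3K9M lower, a separation found in 8.68% of tested genes in this direction and in 19.4% in either direction. DESeq2's Wald test called 1 of the 10 genes (Lama4) and 365 of the 15329 genes it gave an adjusted p (2.38%), and limma-voom called 0 of each.

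**Figure D1:**
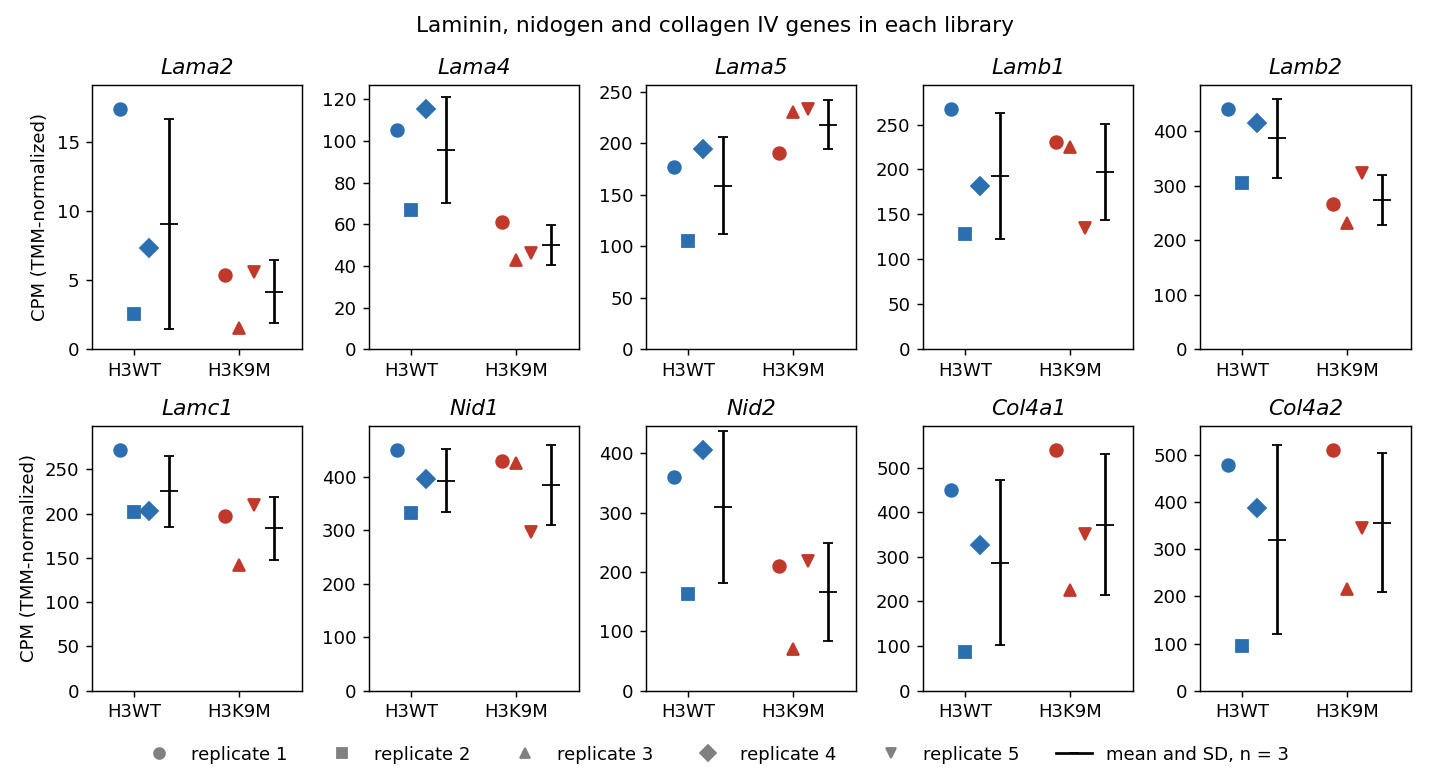
CPM of each of the 10 genes (y axes, linear from 0) in the 3 H3WT and the 3 H3K9M libraries, with a symbol for each replicate number and bars for the mean and SD of the group. The Lama4 points of the groups do not overlap, and H3WT replicate 2 has the lowest Col4a1 and Col4a2 values.

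The levels of the genes were first compared per length, as CPM per kilobase of the longest GENCODE M21 transcript, over the 6 libraries. Nid1 had the highest mean, 63.9 ± 9.99 (SD, n = 6), followed by Lamb2 with 58.7 ± 14.6, Col4a2 with 52.5 ± 24.6, Col4a1 with 49.8 ± 24.3 and Nid2 with 48.8 ± 25.5. These 5 genes did not differ from their neighbours in this order beyond their spread. Lamb1 (33.7 ± 9.65), Lamc1 (26.8 ± 5.40), Lama5 (16.5 ± 4.09) and Lama4 (12.1 ± 5.03) formed a lower series whose neighbours again lay within their spread, except that all 6 Lamc1 values but the lowest lay above the highest of Lama5. Lama2 was far below the others, at 0.688 ± 0.590. Summed Lamb1 and Lamb2 were 2.88 to 4.29 times the gamma chain gene Lamc1 per length, whereas summed Lama2, Lama4 and Lama5 were 0.777 to 1.47 times Lamc1.

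Levels also differed in how much they varied. Between the lowest and the highest library, Nid1 differed 1.51-fold and Lamb2, Lamc1 and Lamb1 by 1.90-fold, 1.91-fold and 2.08-fold. Nid2 differed 5.76-fold, Col4a2 5.37-fold, Col4a1 6.28-fold and Lama2 11.2-fold. The libraries at the low end of these variable genes were H3K9M replicate 3 for Lama2 and Nid2 and H3WT replicate 2 for Col4a1 and Col4a2.

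Lama4 (chr10:38965515-39110188, GRCm38, + strand) encodes the alpha-4 chain, a short chain of mesenchymal and vascular laminins that lacks the outer amino-terminal arm through which other alpha chains polymerise. It had 61.0, 43.1 and 46.0 CPM in H3K9M replicates 1, 3 and 5, and 105, 67.0 and 115 CPM in H3WT replicates 1, 2 and 4. The highest H3K9M library thus lay just below the lowest H3WT library. In edgeR the log2 fold change was -0.94, with an SE of 0.23 (adjusted p 0.222), a level 1.92-fold lower in H3K9M. Lama4 passed with DESeq2 (adjusted p 0.0157) and without H3WT replicate 2 (log2 fold change -1.13, adjusted p 0.0415, edgeR, where 0.639% of all genes passed), while its adjusted p over all alternatives ran from 0.0157 to 0.495. The summed endothelial markers were also lower in H3K9M without overlap (2.80 to 4.03 CPM against 4.49 to 8.31 CPM), with 4 of the 10 at 0 in every library. Egfl7 was most of this sum in each library, with 1.498 to 2.908 CPM in H3K9M and 3.088 to 6.951 CPM in H3WT. Of the other markers with reads, Pecam1 and Esam had higher means in H3K9M, and Kdr, Tek and Vwf lower means. The part of the endothelial markers in the Lama4 difference was not tested. Lama4, Lamb1 and Lamb2 overlap no other annotated gene. The other 7 genes overlap at least 1 over their whole spans, introns included. Whether exons overlap was not tested and the strand setting of the counts is unknown, so any effect on their counts is uncertain.

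Lama5 (chr2:180176373-180225859, - strand) encodes the alpha-5 chain, the widely used alpha chain of adult laminins. Its values were 190.3, 229.8 and 233.1 CPM in H3K9M, and 176.8, 105.1 and 194.7 CPM in H3WT. H3K9M replicate 1 lay below H3WT replicate 4, so the groups overlapped by this pair of libraries. The edgeR estimate on the log2 scale was 0.45 with SE 0.23 (adjusted p 0.456). Lama5 has the longest transcript of the 10 genes, 11388 bases with 59.9% GC, and with a correction (an offset in the model) for length and GC its log2 fold change was 0.87 (adjusted p 0.182). Without H3WT replicate 2, the library with the lowest value, it was 0.24.

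Lama2 (chr10:26980036-27619758, - strand) encodes the alpha-2 chain of muscle and nerve laminin. It was the rarest of the 10 genes, with 80, 32 and 109 reads in H3K9M and 309, 49 and 124 reads in H3WT. These counts correspond to 5.36, 1.55 and 5.56 CPM in H3K9M and 17.3, 2.54 and 7.30 CPM in H3WT. H3WT replicate 1 alone was far above the rest. H3K9M minus H3WT was -1.13 on the log2 scale (SE 0.74, edgeR adjusted p 0.579). Leaving out H3WT replicate 1 brought it to -0.25.

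Shares within a library do not depend on how libraries are scaled to each other. Lama2, Lama4 and Lama5 were therefore also compared as shares of their summed counts per kilobase, a class that leaves out Lama1 and Lama3. Lama4 made up 36.9%, 25.9% and 26.6% of this class in H3K9M, and 50.1%, 53.9% and 51.7% in H3WT. Lama5 made up 61.1%, 73.5% and 71.4% in H3K9M and 44.7%, 44.8% and 46.3% in H3WT. Neither share overlapped between the groups, and H3WT replicate 2, which was low in both genes, had shares close to those of the other H3WT libraries. The mean share of Lama4 was 29.8% ± 6.15 in H3K9M and 51.9% ± 1.92 in H3WT (SD, n = 3 each), and that of Lama5 was 68.7% ± 6.65 and 45.3% ± 0.870. For both shares the exact two-sided permutation test gave p = 0.1, the smallest that 3 libraries against 3 allow, so this design could not pass 0.05. The p after Benjamini-Hochberg adjustment over the 6 shares tested was 0.2. Because Lama2 was a small part of the class, the Lama4 and Lama5 shares nearly mirror each other and are not separate results. The ratio of Lama4 to Lama5 per length was 0.604, 0.353 and 0.372 in H3K9M and 1.12, 1.20 and 1.12 in H3WT. Per length, Lama5 was thus the more abundant alpha transcript in every H3K9M library, and Lama4 in every H3WT library. The order in H3WT rests on dividing by the longest transcript, 11388 bases for Lama5 and 6046 bases for Lama4. Undivided, Lama5 was above Lama4 in H3WT too, with 3149, 2025 and 3305 reads against 1871, 1292 and 1958. The share of Lama2 was 1.55% ± 0.833 in H3K9M and 2.85% ± 2.07 in H3WT, with overlapping values (exact permutation p = 0.4). Lama3, outside this class, was above Lama2 per length in H3K9M, at 0.616, 0.463 and 0.929 CPM per kilobase against 0.557, 0.161 and 0.578. In H3WT Lama3 was at most 0.0319 and below Lama2 in each library.

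**Figure D2:**
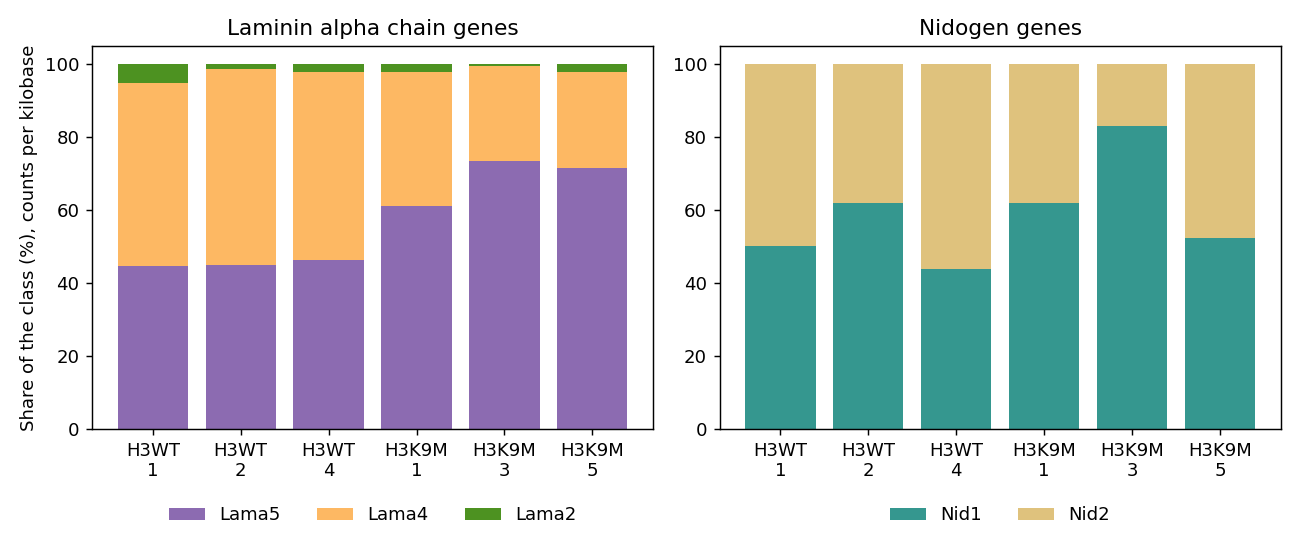
Stacked bars of the share of each gene in its class (y axis, percent of counts per kilobase of transcript) in each library (x axis). The classes are Lama2, Lama4 and Lama5 on the left and the nidogen genes on the right. The Lama5 share is 44.7% to 46.3% in the H3WT libraries and 61.1% to 73.5% in the H3K9M libraries, whereas the nidogen shares overlap.

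Lamb2 (chr9:108479736-108490530, + strand) encodes the beta-2 chain, known from the neuromuscular junction and the kidney glomerulus. It had 267, 232 and 323 CPM in H3K9M and 441, 305 and 415 CPM in H3WT. H3K9M replicate 5 lay above H3WT replicate 2, and the other libraries of the groups were apart. In edgeR the log2 fold change was -0.50, with an SE of 0.18 (adjusted p 0.346). It was -0.22 with the length and GC offset. Lamb1 (chr12:31265234-31329644, + strand), the beta-1 chain of most embryonic laminins, had 230.4, 225.5 and 135.1 CPM in H3K9M and 267, 129 and 181 CPM in H3WT. Its values overlapped throughout, and edgeR gave a log2 difference of 0.03 (SE 0.30, adjusted p 0.978). Leaving out a library turned the sign of the Lamb1 difference for 4 of the 6 libraries. Of the summed Lamb1 and Lamb2 transcripts per length, Lamb2 was 58.9% ± 10.6 in H3K9M and 68.0% ± 4.43 in H3WT (exact permutation p = 0.4). Lamb3, left out of this sum, reached 23.2 CPM per kilobase in H3K9M replicate 3 and 21.1 in H3WT replicate 2. In these libraries Lamb1 was at 39.0 and 22.2, and Lamb2 at 41.2 and 54.1.

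Lamc1 (chr1:153218922-153332786, - strand) encodes the gamma-1 chain, which is part of nearly all laminins outside the skin type and carries the nidogen binding site. It had 197, 142 and 210.1 CPM in H3K9M, against 272, 202 and 203 CPM in H3WT. H3K9M replicate 5 was above 2 of the H3WT libraries. The edgeR estimate on the log2 scale was -0.30 with SE 0.19 (adjusted p 0.552), and it was -0.07 with the length and GC offset, and -0.14 both without H3K9M replicate 3 and without H3WT replicate 1.

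Nid1 (chr13:13437551-13512269, + strand), the widespread nidogen, was the steadiest gene of the set. It had 431, 427 and 298 CPM in H3K9M and 450.3, 333 and 397 CPM in H3WT, a difference that edgeR put at -0.03 on the log2 scale (SE 0.18, adjusted p 0.966). The groups overlapped, and the sign turned under 4 alternatives. Nid2 (chr14:19751265-19811787, + strand), its relative with a narrower distribution, had 211, 70.3 and 218 CPM in H3K9M against 359, 164 and 405 CPM in H3WT. H3K9M replicate 3 was the lowest library, and H3WT replicate 2 lay below the other H3K9M libraries. H3K9M minus H3WT was -0.90 on the log2 scale (SE 0.52, edgeR adjusted p 0.531), and it was -0.52 without H3K9M replicate 3. Nid2 was 34.3% ± 15.7 of the nidogen transcripts per length in H3K9M and 48.0% ± 9.14 in H3WT (exact permutation p = 0.2). In H3K9M replicate 3 that share was 17.1%. Nid2 overlaps Rtraf, a protein-coding gene on the opposite strand, and its count is uncertain to that extent.

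Col4a1 (chr8:11198423-11312826, - strand) and Col4a2 (chr8:11312805-11449287, + strand) encode the alpha-1 and alpha-2 chains that join in the common collagen IV molecule. The genes lie head to head, and their GENCODE M21 models share 22 bases at the start. Promoter windows of 250 bases before and 50 bases after the annotated start were available for 7 of the 10 genes in RefSeq GRCm38.p6, and those of this pair are shown because their transcripts varied together across libraries. The window of Col4a1 is chr8:11312777-11313076 on the - strand and that of Col4a2 is chr8:11312555-11312854 on the + strand. Each is written 5′ to 3′ on the gene's own strand, and capitals mark the 78 bases that lie in both windows, as reverse complements of each other.
Col4a1: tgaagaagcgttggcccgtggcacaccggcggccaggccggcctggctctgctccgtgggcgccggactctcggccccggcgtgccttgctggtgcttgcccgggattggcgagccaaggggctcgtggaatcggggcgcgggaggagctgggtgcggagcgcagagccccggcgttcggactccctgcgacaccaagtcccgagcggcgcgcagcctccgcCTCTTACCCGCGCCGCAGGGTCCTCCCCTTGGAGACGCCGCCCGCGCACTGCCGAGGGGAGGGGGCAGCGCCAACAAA
Col4a2: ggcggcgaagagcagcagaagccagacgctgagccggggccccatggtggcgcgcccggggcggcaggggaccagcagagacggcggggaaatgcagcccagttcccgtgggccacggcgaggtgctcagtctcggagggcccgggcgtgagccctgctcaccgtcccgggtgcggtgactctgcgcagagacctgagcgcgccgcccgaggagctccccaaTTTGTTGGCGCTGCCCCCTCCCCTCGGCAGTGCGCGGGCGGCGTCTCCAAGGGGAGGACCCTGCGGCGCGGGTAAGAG
The windows have 74% and 73.7% GC. The CCAAT motif (CCAAT on either strand) occurs once in each window, outside the shared bases in Col4a1 and across their edge in Col4a2, and the GC box (GGGCGG on either strand) occurs 1 time in the Col4a1 window and 3 times in the Col4a2 window, with 1 match wholly in the shared bases. Matches of the motifs may overlap. Of all 32851 promoter windows of this length, 37.4% hold a CCAAT and 35.7% a GC box. Among the 7 genes with a window, 4 hold a CCAAT (Lamb1, Nid1, Col4a1 and Col4a2) and 6 a GC box, the exception being Lamb2.

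Col4a1 had 539, 225 and 350.3 CPM in H3K9M replicates 1, 3 and 5 and 450.2, 85.9 and 326 CPM in H3WT replicates 1, 2 and 4. Col4a2 followed it, with 511, 215 and 346 CPM in H3K9M and 479, 95.0 and 388 CPM in H3WT. H3WT replicate 2 was the lowest library for both genes and H3K9M replicate 3 the next lowest, so the spread lay within the groups. These libraries also had the lowest summed fibroblast markers (10236 and 12224 CPM) and smooth muscle and pericyte markers (1751 and 1257 CPM). They were unlike in summed chondrocyte markers. H3WT replicate 2 had the highest sum (19400 CPM), whereas H3K9M replicate 3 had 7814 CPM, near the lowest (7264 CPM, H3WT replicate 1). Among fibroblast markers, Col1a1, Col1a2, Col3a1, Postn and Thy1 were lowest in H3WT replicate 2 and H3K9M replicate 3, and Dcn, Lum and Pdgfra highest. The part of the markers in the collagen IV levels was not tested. In edgeR the log2 fold change was 0.37, with an SE of 0.62 (adjusted p 0.862) for Col4a1 and 0.15 (SE 0.61, adjusted p 0.950) for Col4a2. Without H3WT replicate 2 both were below 0, at -0.053 and -0.27.

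The ratio within the pair was far steadier than the levels. Reads of Col4a1 over reads of Col4a2 were 1.06, 1.05 and 1.01 in H3K9M and 0.940, 0.904 and 0.839 in H3WT, while each level spanned over 5-fold. The share of Col4a1 in the pair, per length, was 50.3% ± 0.538 in H3K9M and 46.6% ± 1.44 in H3WT (SD, n = 3 each). The groups did not overlap, and the difference of 3.77 percentage points had an exact two-sided permutation p of 0.1, the smallest possible (0.2 adjusted over 6 shares).

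**Figure D3:**
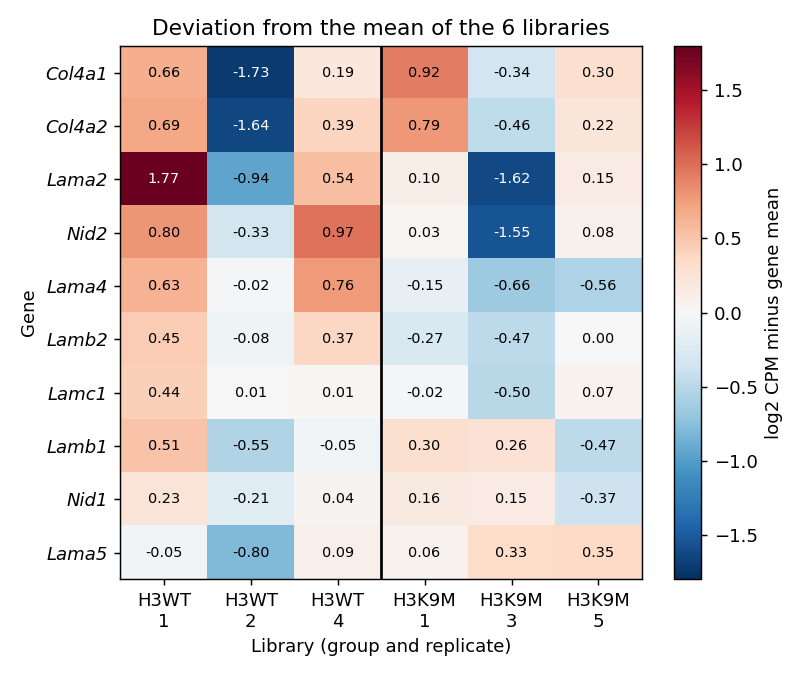
Heat map of log2 CPM minus the mean of the 6 libraries for each gene (rows) in each library (columns, H3WT left of the line and H3K9M right), with the value printed in each cell. Col4a1 and Col4a2 have the same pattern, lowest in H3WT replicate 2, and Lama2 and Nid2 are lowest in H3K9M replicate 3.

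Across the 6 libraries, which differ in depth and in their marker sums, Pearson's r of log2 CPM between the genes is given as a description. Of the 45 pairs, 10 had an r over 0.8 and 5 had an r below 0. Col4a1 with Col4a2 had the highest r (0.991), followed by Lamb1 with Nid1 (0.950). Nid2 went with Lamb2 (0.906) and Lama2 (0.893), but hardly with Nid1 (0.035), and the lowest r was that of Lama4 with Lama5 (-0.296). The genes thus did not move as 1 block. Among 9442 other genes with a mean of at least 10 CPM, those most like Col4a1 were Cbfa2t2 (r 0.999), Pigk (0.994) and Inafm2 (0.985), and those most like Lamc1 were Nup133 (0.987), Larp1 (0.987) and Maz (0.986). With only 6 points, 156 genes had an r over 0.9 with Col4a1 and 157 with Lamc1.

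**Figure D4:**
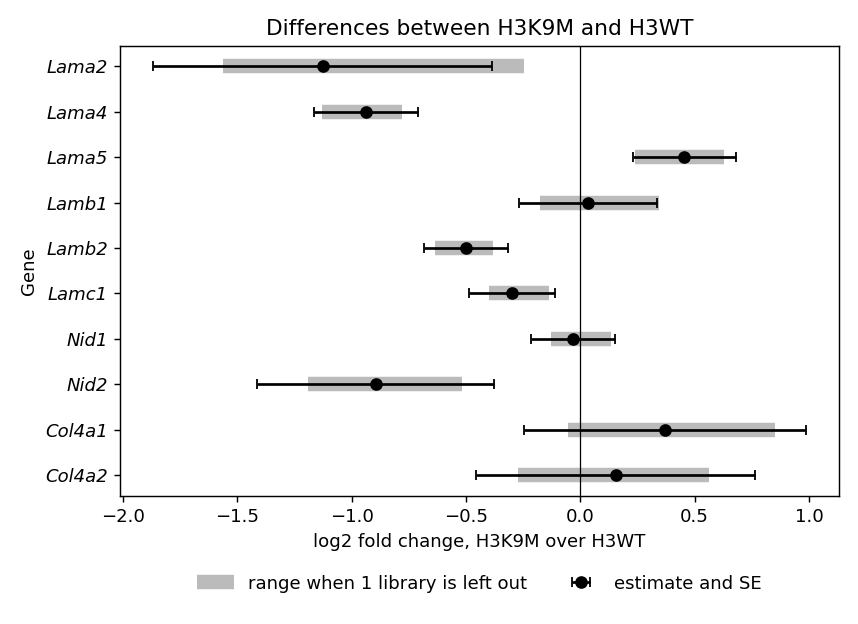
Log2 fold change of each gene, H3K9M over H3WT (x axis), with its SE (black) and the range of the estimates when each library in turn was left out (grey). The Lama4 range, -1.13 to -0.78, lies wholly below 0, as do those of Lama2, Lamb2, Lamc1 and Nid2, and those of Lamb1, Nid1, Col4a1 and Col4a2 cross 0.

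As a set, the 10 genes had their median log2 fold change at -0.16, and 6 were lower in H3K9M, against a median of -0.003 over all tested genes, of which 50.4% were lower. Their transcripts are long, from 4876 to 11388 bases. The 2982 tested genes with transcripts in that range had a median of -0.11 and 65.1% of them were lower in H3K9M. With the length and GC offset the median of the 10 genes was 0.02 and 5 were lower. With H3K9M replicate 3 and H3WT replicate 2 both left out, an alternative chosen after seeing the data, 2 of the 10 genes passed, namely Lama4 (log2 fold change -1.03, adjusted p 0.0247, edgeR) and Nid2 (-0.82, adjusted p 0.022), beside 302 of all genes (2.19%).

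The other 9 laminin and collagen IV chain genes spanned a wide range of levels. Col4a5, an X-linked chain, had the highest mean, 16.7 ± 3.35 CPM per kilobase (SD, n = 6), near that of Lama5, and a difference that edgeR put at 0.03 on the log2 scale (SE 0.22, adjusted p 0.972). Of the 6 that passed the filter, 1 had an unadjusted p under 0.05, higher in H3K9M, as had 6.42% of all tested genes. This was the alpha-3 chain gene Lama3, whose product is part of the laminin of skin. Lama3 had 97, 101 and 192 reads in H3K9M (6.50, 4.88 and 9.80 CPM) and 6, 0 and 5 reads in H3WT. It was low in level in all 6 libraries, and the groups were well apart. The edgeR estimate on the log2 scale was 5.05 with SE 0.88 (adjusted p 0.17), a value that rests on few reads in H3WT. It was 5.09 with DESeq2 and 5.60 with limma-voom. Lama3 passed with DESeq2 (adjusted p 1.82e-08), with no low-count filter (0.0159, where 0.18% of all genes passed) and without H3WT replicate 2 (0.0291), and the adjusted p over its alternatives ran up to 0.495. The 6 epithelial markers summed to 6.90, 25.2 and 4.85 CPM in H3K9M and at most 5.55 CPM, in replicate 2, in H3WT. Krt18 was most of these sums, with 6.83, 22.0 and 4.34 CPM in H3K9M and 4.83 CPM in H3WT replicate 2. Krt5 was at 0 in all libraries, and the part of these markers in the Lama3 difference was not tested. The whole span of Lama3, introns included, overlaps 4 other annotated genes. These are the antisense gene Gm29200, the processed pseudogenes Gm29199 and Gm29201, the latter on its own strand, and the rRNA gene Gm22340. Whether they overlap its exons was not tested, so any effect on its low counts is uncertain.

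Lamb3, which encodes the beta-3 chain, had a mean of 11.1 ± 9.64 CPM per kilobase (SD, n = 6), near that of Lama4, and its groups overlapped. It had 23.9, 113 and 66.2 CPM in H3K9M and 9.26, 103 and 8.25 CPM in H3WT, a difference that edgeR put at 0.76 on the log2 scale (SE 1.09, adjusted p 0.836), with the high values in H3K9M replicate 3 and H3WT replicate 2. Lamb3 overlaps Hsd11b1 and G0s2 on the opposite strand. Lama1, the alpha chain of the earliest embryonic laminin, had 0 reads in all 3 H3K9M libraries, which allows up to 0.145 to 0.201 CPM by counting error, and 35, 0 and 44 reads in H3WT replicates 1, 2 and 4. It did not pass the filter and was not tested, and the H3WT libraries did not share it. Col4a3 had 0 reads in all 6 libraries and Col4a4 between 0 and 18.

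Of 20 other basement membrane and pericellular proteins, 16 were tested in edgeR, 0 passed the adjusted threshold, and 3 were lower and 2 higher in H3K9M at an unadjusted p under 0.05 (5.77% and 6.42% of all genes). Their median log2 fold change was -0.13. Perlecan (Hspg2), the main heparan sulfate proteoglycan of the chondrocyte's pericellular matrix, had 1498, 1297 and 1867 CPM in H3K9M and 2045, 1297 and 1449 CPM in H3WT, a difference that edgeR put at -0.04 on the log2 scale (SE 0.22, adjusted p 0.963). Fbln1, a fibulin that binds laminin and nidogen, had the smallest p of the list (log2 fold change -0.97, SE 0.27, adjusted p 0.242), with no overlap between the groups, and was the 1 gene of the list that DESeq2 called (adjusted p 0.0387). The SPARC relatives went opposite ways, with Smoc1 at -0.69 (SE 0.23) and Smoc2 at 0.80 (SE 0.24). Ntn1, a netrin built from laminin-like domains, was at -0.62 (SE 0.26) and Hmcn2, a hemicentin with at most 3.29 CPM, at 3.55 (SE 1.23). Ntn1 was at -0.32 without H3WT replicate 2, and Hmcn2 at 6.16 without H3WT replicate 1.

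All 15 receptor genes were tested and 0 passed the adjusted threshold in edgeR, while DESeq2 called 2, Itga1 (adjusted p 0.0451) and Itga7 (0.0463), against 2.38% of all genes. Their median log2 fold change was 0.24, and over the alternatives it ran from 0.06 (limma-voom) to 0.31 (without H3K9M replicate 1). In edgeR 9 were higher in H3K9M, as were 6827 of the 13761 tested genes. At an unadjusted edgeR p under 0.05, 1 was lower and 1 higher, against 5.77% and 6.42% of all tested genes. Itga1, the alpha subunit of a collagen IV binding integrin, had 46.8, 13.7 and 38.8 CPM in H3K9M and 87.7, 44.6 and 125 CPM in H3WT (edgeR log2 difference -1.37, SE 0.55, adjusted p 0.394). Only H3WT replicate 2 overlapped the H3K9M values. Itga7, the alpha subunit of the laminin receptor of muscle, had 32.0, 32.8 and 16.6 CPM in H3K9M and 12.0, 12.8 and 14.6 CPM in H3WT (1.05, SE 0.28, adjusted p 0.239), without overlap.

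The 9 skeletal muscle markers had their highest sums in H3K9M replicates 1 and 3, while the sum of H3K9M replicate 5 lay within the H3WT range. They summed to 155, 227 and 21.2 CPM in H3K9M and to 31.7, 11.1 and 25.8 CPM in H3WT. Myf5 and Pax7 were at 0 in all 6 libraries. Acta1, whose groups overlapped, was most of the sum in H3WT replicates 1 and 4 (26.2 and 24.0 CPM). Myod1 had 19.5, 57.0 and 4.29 CPM in H3K9M against 0, 1.04 and 0 CPM in H3WT, and Des and Myh3 were likewise at an unadjusted p under 0.05. Des was at 3.80 on the log2 scale (SE 0.98, edgeR), and DESeq2 called it (adjusted p 0.0151). Myh3 had 225, 491 and 34 reads in H3K9M and 12, 0 and 0 reads in H3WT, so that its fold rests on H3WT replicate 1. Myod1, Des and Myh3 were higher in every H3K9M library, replicate 5 included, than in any H3WT library. This separation was found in 10.7% of all tested genes. The part of these markers in the Itga7 difference was not tested. Among 7 Schwann cell markers, which matter for Lama2, the sum was 17.5 to 22.6 CPM in H3K9M and 7.48 to 7.75 CPM in H3WT. Mbp was 15.9 to 19.6 CPM of it in H3K9M and 2.18 to 6.40 CPM in H3WT, while Sox10 and Foxd3 were at 0 in all libraries.

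Itgb1 and Dag1 were abundant receptor genes. Itgb1, the beta subunit common to laminin- and collagen-binding integrins, had 1724, 1880.4 and 1609 CPM in H3K9M and 1387, 1364 and 1479 CPM in H3WT, without overlap (edgeR log2 difference 0.30, SE 0.13, adjusted p 0.415). Dag1, which encodes dystroglycan, a laminin receptor, had 294, 254 and 440.4 CPM against 355, 322 and 374 CPM (-0.09, SE 0.20, adjusted p 0.902). Of 13 genes in the table for enzymes that build dystroglycan's laminin-binding glycan, 12 were tested and 0 had an unadjusted p under 0.05, with a median log2 fold change of 0.04. B3galnt2 had the smallest p (log2 fold change 0.43, SE 0.19, adjusted p 0.41).

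Of 15 genes for collagen IV folding, export and crosslinking, 14 were tested in edgeR and 0 passed the adjusted threshold there or in DESeq2, with a median log2 fold change of -0.16. Plod3, a lysyl hydroxylase and glycosyltransferase that modifies collagen IV, was the 1 gene with an unadjusted p under 0.05. It was lower in H3K9M, as were 5.77% of all tested genes at this threshold. It had 352, 257 and 301 CPM in H3K9M and 507, 366 and 442 CPM in H3WT, without overlap (edgeR log2 difference -0.53, SE 0.17, adjusted p 0.29). Pxdn, the peroxidase that forms the sulfilimine crosslink of collagen IV, had -0.23 (SE 0.26), and Serpinh1, the collagen chaperone, had -0.32 (SE 0.28).

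**Figure D5:**
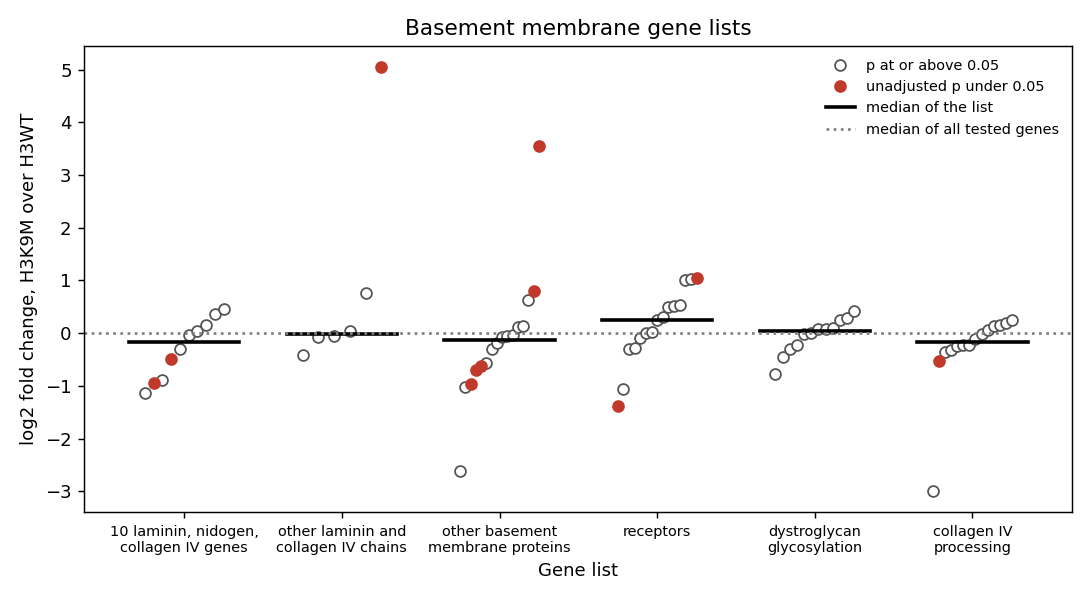
Log2 fold change, H3K9M over H3WT (y axis), of each tested gene in 6 lists (x axis), with filled red points for an unadjusted p under 0.05, a bar for the median of each list and a dotted line for the median of all tested genes. List medians run from -0.16 to 0.24, and Lama3 (5.05) stands highest.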

How the data were processed

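Poly(A) RNA was sequenced in 6 libraries, 3 per group (Tecan mRNA kit, per the labels). The deposited table holds raw read counts for each symbol, which the authors did not normalize, as judged from whole numbers with unequal totals. HISAT2, featureCounts, DESeq2 and the build mm10 are named in the submitters' processing notes; versions, annotation and strand setting are not given in the sources used here. Each column matched 1 sample title and 0 columns belonged to other series.

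Total counts were 15113675 to 19606082 per library. A count of 0 allows up to 3 counts by sampling alone, and such limits cover counting error only. Counts were tested in R 4.3.3 with edgeR 4.0.16 (filterByExpr, TMM, robust quasi-likelihood fit, genotype as the only term) over 13761 genes, with Benjamini-Hochberg adjustment over all of them and a threshold of 0.05. The SE is the log2 fold change divided by the square root of F. Log2 CPM used a prior count of 2. Length and GC came from the longest GENCODE M21 transcript (GRCm38, found for 94.3% of tested genes). Shares were compared with exact permutation tests (scipy 1.17.1). Alternatives were DESeq2 1.42.0, limma-voom (limma 3.58.1), other scalings and filters, a loess offset (span 0.5) on length and GC, an adjusted p under 0.10 and leaving out libraries. In 5 simulations of H3K9M against H3WT with 200 of 13761 genes changed, edgeR recovered 30.2% of 2-fold and 67.8% of 4-fold changes, and 8.41% of its calls were false. With blastn 2.17.0, transcripts of other genes with at least 90% identity over 200 bases were found for Nid1 (Gm2399) and Nid2 (Rtraf) among the 10 genes.

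The values of 1 other chain gene are not reported here. The 10 genes, the lists and the naming rule were chosen with earlier results of these data known. The rule named all 10 genes, genes of the other lists with an unadjusted p under 0.05 or else the smallest p, and the 3 genes most like Col4a1 and Lamc1. The other chain genes apart from Lama3, and Hspg2, Itgb1, Dag1, Pxdn, Serpinh1, Krt18 and Egfl7, fell outside it and were chosen after their values were seen. So were Col2a1, Acta1 and the single endothelial, fibroblast, smooth muscle and pericyte markers named above. In edgeR no marker list had an adjusted call, while DESeq2 called Des and Mbp among the markers with an unadjusted p under 0.05. The 11 chondrocyte markers had a median log2 fold change of -1.03 (Col9a1 at -1.89, and -1.16 without H3WT replicate 2). All 11 were lower in H3K9M, as were 50.4% of all tested genes. The median was -0.08 for 10 fibroblast markers and -0.39 for 9 smooth muscle and pericyte markers. Of the adipocyte markers 4 were tested (median -0.51, Cebpa at -0.87), of the epithelial 1 (Krt18, 2.49), of the macrophage and blood 2 (1.23), of the endothelial 1 (Egfl7, -1.14), of the skeletal muscle 4 (4.84) and of the Schwann cell 3 (0.18, Mbp at 1.88).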

Additional observations from a re-analysis of the deposited data

How the results depend on the processing

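No paired analysis was possible because the groups share only replicate number 1. The count of the 10 genes past an adjusted p of 0.05, 0 as reported, was 1 with DESeq2 and 2 with H3K9M replicate 3 and H3WT replicate 2 both left out, and ran from 0 to 1 when each library was left out. Over all genes the count of 0 became 365 with DESeq2, 36 with no low-count filter, 302 with both of those libraries left out and 1 at an adjusted p under 0.10, and ran from 0 to 91 when each library was left out. The cause was not tested. The 91 came without H3WT replicate 2, and 2 came without H3K9M replicate 3. With each library left out in turn, the log2 fold change of Lamb1 ran from -0.18 to 0.35, that of Nid1 from -0.13 to 0.13, that of Col4a1 from -0.053 to 0.85 and that of Col4a2 from -0.27 to 0.56. With both libraries left out, Lamb1 was at -0.29 and Col4a2 at -0.0075. Nid1 was at 0.035 with library size alone and at 0.10 with the length and GC offset. The other 6 genes kept their sign in each alternative, and so did the 6 shares tested. With each library left out the Lama4 share differed by -25.6 to -20.1 percentage points and the Lama5 share by 21.0 to 27.2. With 3 libraries a group, changes of 2-fold in single genes were mostly not recovered in simulated data.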
